A study of Arabidopsis thaliana with 12 samples.

Results

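A set of nuclear genes for the photosynthetic apparatus was followed in RNA-seq libraries of Arabidopsis roots. The set holds 43 of the 32678 genes in the count table, listed by gene family with earlier results of these data known: 4 *LHCA* genes for the antenna of photosystem I (PSI), 14 *LHCB* genes for the antenna of photosystem II (PSII), 12 *PSA* genes for PSI subunits, 9 *PSB* genes for PSII subunits and 4 *RBCS* genes for the small subunit of Rubisco. Of these, 42 passed the filter on low counts, and *RBCS1B* (AT5G38430) did not. The families are not complete, since *PSB28* and *PSBTN* were placed in a separate list of other electron transport genes. The libraries came from roots of *clf* seedlings (line *clf-29*) under iron deficiency (-Fe) or iron sufficiency (+Fe) and of wild type seedlings (ecotype Col-0) under -Fe or +Fe, with 3 libraries per group and 12 in all. All plants grew for 12 days on B5 plates before their 3 days of treatment, at 22°C with 16 h of light and 8 h of darkness. The -Fe plates held ferrozine, which chelates iron, and the +Fe plates held FeNa-EDTA. A single *clf* line was sequenced, and CURLY LEAF (CLF) is a histone methyltransferase of the Polycomb repressive complex PRC2.

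In green tissue, chlorophyll-binding antenna proteins pass light energy to the reaction centers of both photosystems, and Rubisco fixes carbon dioxide. Their nuclear genes are strongly expressed in leaves and are known to respond to light, to the circadian clock and to the state of the plastid. Both photosystems contain iron, PSI in iron-sulfur clusters, and chlorophyll synthesis includes an iron-dependent step. Roots grown in light form some chloroplasts, so the transcripts are detectable there at lower levels.

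Total counts per library ranged from 18658428 to 28281420. *CLF* transcripts were at 10.3 to 15.8 CPM in the 6 *clf* libraries and at 43.6 to 55.0 CPM in the 6 wild type libraries (CPM are counts scaled by library size and TMM factor, and are used for all levels below unless FPKM is named). In each group, 1 library correlated least with the others, over 20026 genes outside the lists examined here, with a mean of 0.934 to 0.953. These were *clf* -Fe replicate 1, *clf* +Fe replicate 2, wild type -Fe replicate 1 and wild type +Fe replicate 1. The clock genes of these 4 libraries also differed from the others, with the morning gene *CCA1* at 2.97 to 6.67 CPM in the 4 and at 26.7 to 48.2 CPM in the other 8. The evening gene *TOC1* was at 85.7 to 126 CPM in the 4 and at 42.6 to 50.7 CPM in the other 8. The root genes *SCR* and *PIN2* were present in all 12 libraries, at 33.9 to 65.7 CPM and 153 to 227 CPM. Medians and counts of the members are given with and without the libraries that moved them.

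Near-identical copies limit what reads can tell about some members. *LHCB1.1*, *LHCB1.2* and *LHCB1.3* (annotated as *CAB2*, *CAB3* and *CAB1*) lie side by side on chromosome 1, and *LHCB1.4* and *LHCB1.5* (*LHB1B1* and *LHB1B2*) lie side by side on chromosome 2. The last 90 bases of their coding sequences are shown with capitals at bases that differ from *LHCB1.3* (RefSeq, TAIR10.1). There are 3 such bases in *LHCB1.1* and 2 in *LHCB1.2*, but 11 in *LHCB1.4* and 10 in *LHCB1.5*.
LHCB1.1: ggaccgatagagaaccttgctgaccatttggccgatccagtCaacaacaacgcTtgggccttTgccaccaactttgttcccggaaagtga
LHCB1.2: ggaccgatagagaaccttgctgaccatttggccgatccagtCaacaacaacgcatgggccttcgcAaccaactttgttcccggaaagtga
LHCB1.3: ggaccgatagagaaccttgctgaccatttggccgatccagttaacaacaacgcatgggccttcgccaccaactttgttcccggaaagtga
LHCB1.4: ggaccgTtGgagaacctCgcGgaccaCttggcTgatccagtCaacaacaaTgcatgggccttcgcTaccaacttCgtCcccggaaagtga
LHCB1.5: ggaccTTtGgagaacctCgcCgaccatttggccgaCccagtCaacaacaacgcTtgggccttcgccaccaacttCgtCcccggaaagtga

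Over whole coding sequences, *LHCB1.1* was 96.1% identical to *LHCB1.3* and 95.7% identical to *LHCB1.2*, and *LHCB1.4* was 91.4% identical to *LHCB1.5*. Of the 3 *RBCS* copies on chromosome 5, *RBCS1B* and *RBCS2B* were 97.3% identical, *RBCS1B* and *RBCS3B* 94.1% and *RBCS2B* and *RBCS3B* 94.3%. *RBCS1B* and *RBCS3B* shared an unbroken run of 230 bases. The longest runs were shorter for *LHCB1.4* and *LHCB1.5* (122 bases), *LHCB1.1* and *LHCB1.3* (119 bases) and *RBCS2B* and *RBCS3B* (96 bases). Their last 90 coding bases are shown with capitals at differences from *RBCS1B*, and *RBCS2B* and *RBCS3B* have the same letters there.
RBCS1B: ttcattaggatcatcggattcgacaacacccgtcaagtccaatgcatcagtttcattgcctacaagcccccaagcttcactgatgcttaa
RBCS2B: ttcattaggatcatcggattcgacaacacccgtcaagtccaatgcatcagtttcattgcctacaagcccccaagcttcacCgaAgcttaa
RBCS3B: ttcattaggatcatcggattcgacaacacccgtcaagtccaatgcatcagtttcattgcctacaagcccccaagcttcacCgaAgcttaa

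How far reads were shared between copies was not tested, so levels of single copies within these groups are uncertain. The spans of 16 members also overlap another annotated gene. The whole of *LHCB1.5* (1045 bases) lies opposite AT2G08665, and the strand setting of the counting is not stated.

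The members differed widely in level. In FPKM, which corrects for gene length, *LHCB1.5* averaged 192 over the 12 libraries and *LHCB1.3* averaged 130, both for proteins of the major PSII antenna. *PSBR*, a small PSII subunit, averaged 78.5 FPKM, *LHCA4* of the PSI antenna 73.2 FPKM and *RBCS1A* 47.2 FPKM. *PSAF*, which takes part in the docking of plastocyanin at PSI, was the highest PSI subunit gene at 17.2 FPKM, and *PSAH1* was the lowest at 3.48 FPKM. Their ranges over libraries overlapped widely, since *LHCB1.5* alone spanned 28.4 to 505 FPKM. At the low end, *LHCB4.3* averaged 0.730 FPKM, *RBCS2B* 0.475 FPKM and *RBCS1B* 0.269 FPKM. The antenna of PSII made up 42.5 ± 4.01% of the summed FPKM of the members in -Fe *clf* roots and 48.2 ± 3.00% in +Fe *clf* roots, and it made up 43.8 ± 6.15% in -Fe and 46.6 ± 0.816% in +Fe wild type roots (SD, n = 3 each).

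Photosynthesis transcripts were at a lower summed level in -Fe than in +Fe wild type roots, and 5 members passed the test. The summed level of the 43 genes was 892, 187 and 259 CPM in the 3 -Fe wild type libraries, against 1789, 1263 and 1176 CPM in the 3 +Fe wild type libraries. The sums did not overlap, and replicate 1 was the highest of each group. Of the 42 tested members, 40 had a negative log2 fold change (-Fe over +Fe), with a median of -1.54 against -0.00 over all 20168 tested genes. The called members, all lower under -Fe, were *PSBR*, *PSBO1*, *LHCA4*, *PSAF* and *PSAN*, while 2.14% of all tested genes were called lower. No member was called higher, against 2.28% of all tested genes. Libraries did not overlap and were lower under -Fe in 23 members, against 11.6% of all tested genes. DESeq2 called 18 members lower, against 4.32% of all tested genes.

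**Figure D1:**
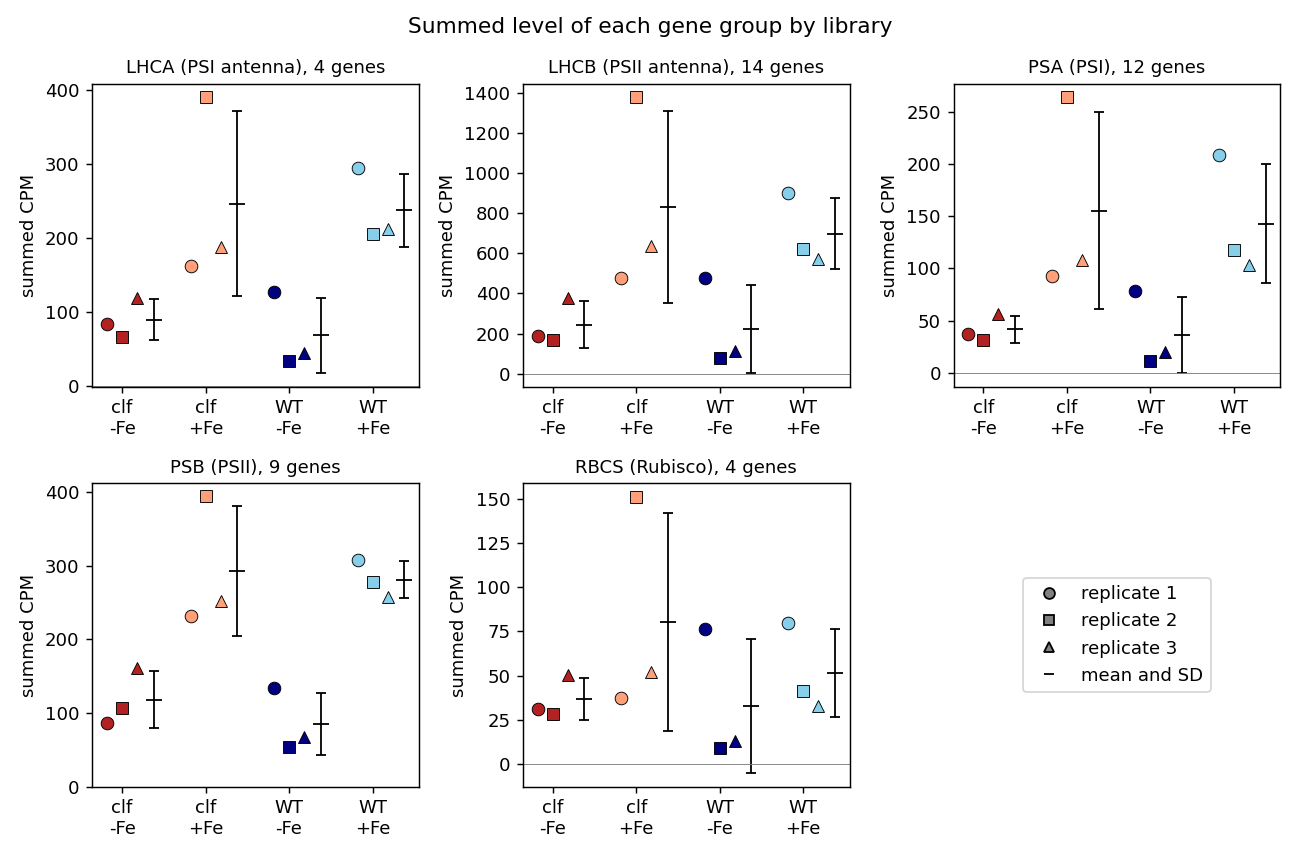
Summed CPM of the genes of each group in each library, by genotype and iron condition, with points for replicates and the mean and SD beside them. In the *LHCA*, *LHCB*, *PSA* and *PSB* panels the -Fe libraries of both genotypes lie below every +Fe library. In the *LHCB* panel this is by little, at 477 CPM in wild type -Fe replicate 1 and 478 CPM in *clf* +Fe replicate 1. In the *RBCS* panel the groups overlap.

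*PSBO1* (AT5G66570) encodes the main manganese-stabilizing protein of the oxygen-evolving complex. It was at 27.7, 13.6 and 17.3 CPM in -Fe wild type roots, against 76.8, 66.9 and 62.7 CPM in +Fe wild type roots. All -Fe libraries were below all +Fe libraries, and the log2 fold change was -1.82 (SE 0.31, edgeR adjusted p = 0.00919). *PSBR* (AT1G79040) was at 27.2, 18.6 and 22.8 CPM in -Fe wild type roots, against 74.3, 96.4 and 89.5 CPM in +Fe wild type roots. The groups did not overlap, and the log2 fold change was -1.92 (SE 0.28, edgeR adjusted p = 0.0038). *PSBR* and *PSBO1* were called in all 23 alternative fits of this comparison.

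In the antenna of PSI, *LHCA4* (AT3G47470) was at 58.2, 21.0 and 28.6 CPM in -Fe wild type roots, against 149, 135 and 138 CPM in +Fe wild type roots. Replicate 1 was again the highest -Fe library and stayed below every +Fe library, with a log2 fold change of -1.97 (SE 0.38, edgeR adjusted p = 0.0154). *PSAF* (AT1G31330) was at 8.58, 1.71 and 3.68 CPM in -Fe wild type roots, against 34.6, 22.2 and 21.3 CPM in +Fe wild type roots. Its log2 fold change was -2.48 (SE 0.57, edgeR adjusted p = 0.0365). *PSAN* (AT5G64040), a lumenal PSI subunit, was at 5.26, 0.767 and 1.61 CPM in -Fe wild type roots, against 25.8, 17.8 and 13.9 CPM in +Fe wild type roots. The groups did not overlap for either gene, and *PSAN* had the most negative log2 fold change of the members, at -2.90 (SE 0.68, edgeR adjusted p = 0.0376).

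By complex, the median log2 fold change in wild type was -1.85 for the *PSA* genes, of which edgeR called 2 of 12 lower and DESeq2 6, and -1.61 for the *PSB* genes, of which edgeR called 2 of 9 and DESeq2 7. It was -1.73 for the *LHCA* genes, of which edgeR called 1 of 4 and DESeq2 2, and -1.39 for the *LHCB* genes, of which edgeR called none of 14 and DESeq2 3. The *RBCS* genes had a median of -0.14, with none of 3 tested genes called by either tool. Over all tested genes, edgeR called 2.14% lower and DESeq2 4.32%. The highest gene, *LHCB1.5* (AT2G34420), was at 143, 31.3 and 41.1 CPM in -Fe wild type roots and at 301, 312 and 286 CPM in +Fe wild type roots. These did not overlap, but the adjusted p of 0.0665 from edgeR missed the threshold of 0.05. *RBCS1A* (AT1G67090), the main Rubisco small subunit gene in these libraries, was at 67.0, 8.35 and 12.9 CPM in -Fe wild type roots, against 74.6, 37.9 and 30.7 CPM in +Fe wild type roots. Here the groups overlapped through replicate 1 of the -Fe group. Without the 4 libraries that stand apart, *RBCS1A* and *RBCS2B* were among the members called lower in wild type. That removal makes the spread smaller by the way the libraries were picked. *RBCS2B* then had 17 and 9 reads in +Fe wild type replicates 2 and 3, and 1 and 0 in -Fe wild type replicates 2 and 3. In *clf* the median was -2.14 for 3 *RBCS* genes, -1.83 for *PSA*, -1.56 for *LHCB*, -1.55 for *LHCA* and -1.34 for *PSB* genes. *RBCS1A* was at 30.9, 26.7 and 49.6 CPM in -Fe *clf* roots, against 37.2, 139 and 49.6 CPM in +Fe *clf* roots, which overlap.

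The number of calls varied most, among the fits without 1 library, with wild type -Fe replicate 1. Of the 43 members, 42 had their highest -Fe wild type value in that library, with a median log2 deviation of 1.43 from the group mean. Without it, 28 members were called lower, against 3.01% of all tested genes, and the median was -2.82. Without either of the other -Fe wild type libraries, or without +Fe wild type replicate 2 or 3, 2 were called, against 0.648% to 0.877% of all tested genes, and without +Fe wild type replicate 1, 3 were called, against 2.66%. Without *clf* +Fe replicate 2 or 3, which enter only through the shared fit, 8 and 3 were called, against 2.39% and 1.37%. The deviations of same-numbered wild type libraries were positively correlated. Replicate 1 stands apart in both wild type groups, so a pairing cannot be told apart from this. A fit of the 6 wild type libraries with the replicate number as a block was added after the data were seen. It called 23 members lower, against 5.83% of all tested genes. With the block in the model of 12 libraries, 4 members were called, which left out *PSAN*, and the share of all tested genes is not given for this fit. All 43 members were lower in the -Fe library of replicate 2 and of replicate 3 than in the +Fe library of the same number, and 35 were in replicate 1. The same count was not made over all tested genes, and the labels do not say that equal numbers are pairs.

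**Figure D2:**
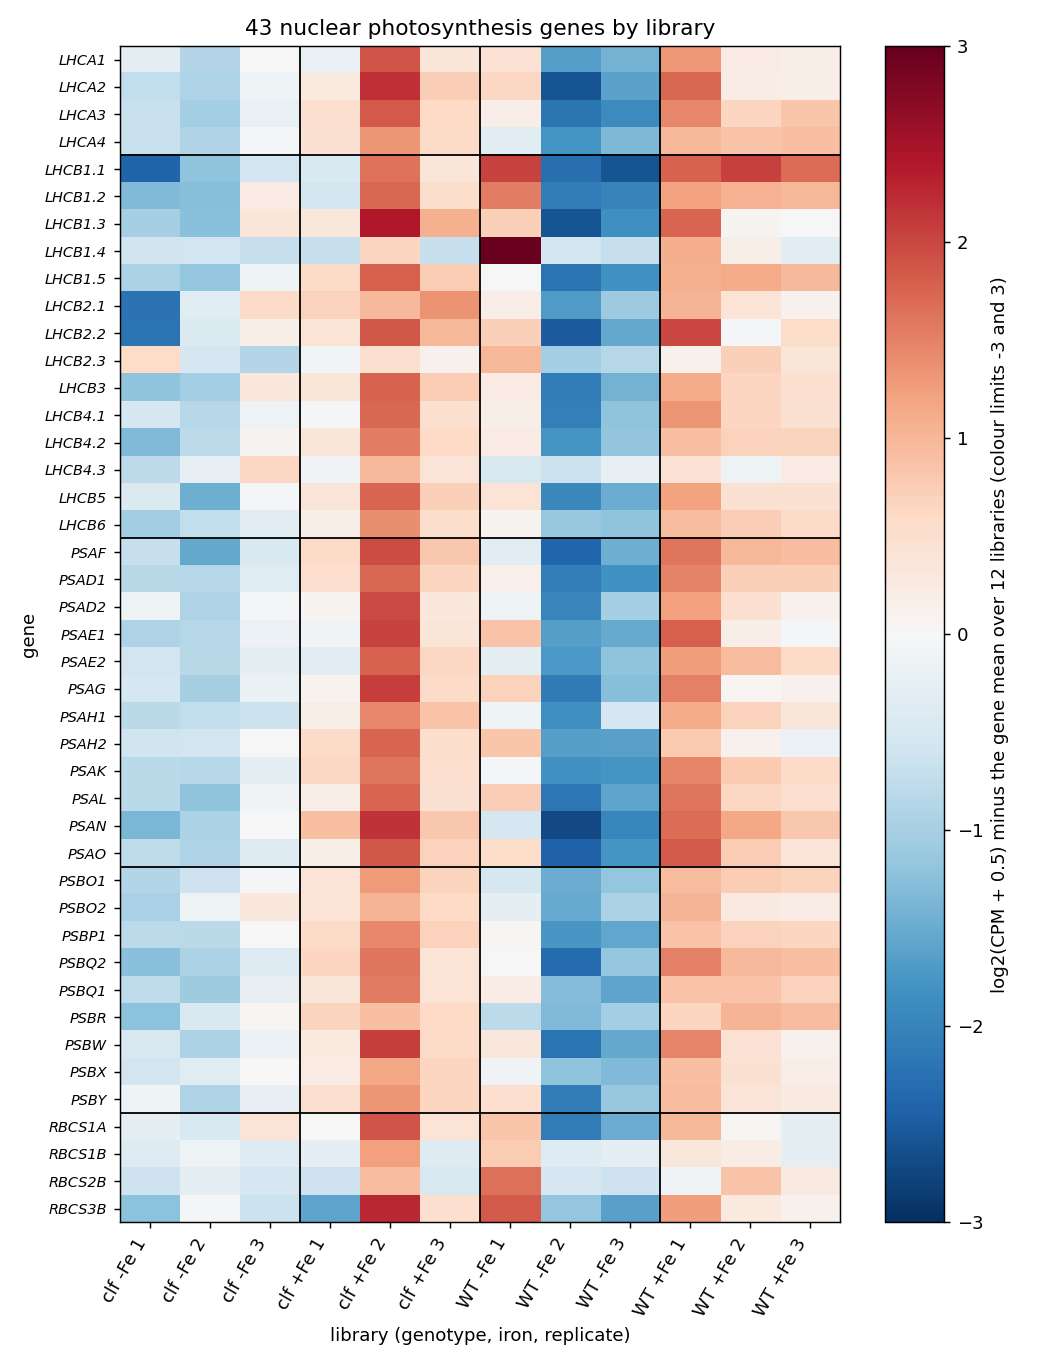
Level of the 43 genes (rows, grouped from top to bottom as *LHCA*, *LHCB*, *PSA*, *PSB* and *RBCS*) in the 12 libraries (columns), as log2(CPM + 0.5) minus the mean of the gene over all libraries. Wild type -Fe replicates 2 and 3 are low for most genes, and *clf* +Fe replicate 2 is the highest library of its group for 42 of the 43.

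The leaf carbonic anhydrase gene *CA1*, picked after its values were seen, was at 1.78 CPM in wild type -Fe replicate 1 and at 0 to 0.365 CPM in the other 11 libraries. *LHCB1.4* (AT2G34430) was at 5.87, 0.0451 and 0 CPM in -Fe wild type roots, against 1.22, 0.417 and 0.144 CPM in +Fe wild type roots. *RBCS2B* (AT5G38420) was at 1.90, 0.0451 and 0 CPM in -Fe wild type roots, against 0.211, 0.887 and 0.432 CPM in +Fe wild type roots. These 2 members were the ones with a positive log2 fold change in wild type, at 1.71 (SE 1.66) and 0.39 (SE 1.48), and both had their highest value of all libraries in that 1 library. Of the 8 leaf mesophyll and photorespiration genes listed, *STOMAGEN*, a peptide gene of leaf mesophyll, was at 0 in all 6 wild type libraries. The summed level of the list was 199.9, 244 and 271 CPM in the 3 -Fe wild type libraries, so replicate 1 was the lowest, against 323 to 341 CPM in +Fe wild type roots, and in replicate 1 it had 4 genes above and 3 below the mean of the -Fe group, with a median log2 deviation of 0.22. The 8 genes of the stomatal lineage summed to at most 1.44 CPM in any library. The root hair gene *EXPA7*, also picked after its values were seen, was at 6.07 CPM in -Fe wild type replicate 1, against 58.6 and 49.4 CPM in the other -Fe wild type libraries. The 12 root marker genes listed summed to 1022, 1256 and 1272 CPM in the 3 -Fe wild type libraries, with 5 genes above and 7 below the group mean in replicate 1 and a median log2 deviation of -0.11 there. In the +Fe wild type libraries these root markers summed to 636, 1016 and 1065 CPM. Replicate 1 of that group also had 5 genes above and 7 below its group mean, with a median log2 deviation of -0.36. The part of these differences in the members' levels was not tested, and in whole roots fewer chloroplast-bearing cells and less RNA per cell cannot be told apart.

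**Figure D3:**
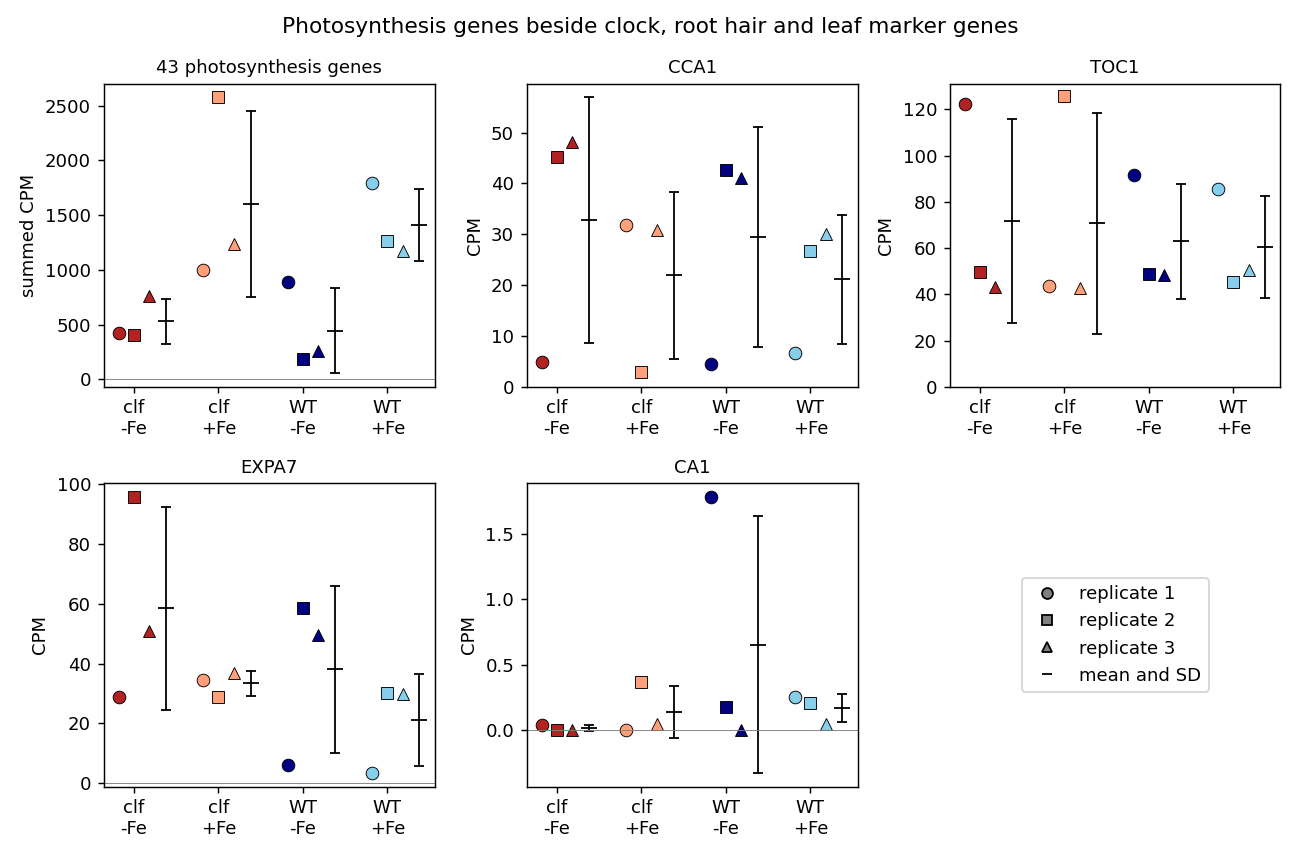
Summed CPM of the 43 photosynthesis genes and CPM of the clock genes *CCA1* and *TOC1*, the root hair gene *EXPA7* and the leaf gene *CA1* in each library, with the mean and SD beside the points. *CCA1* is low in 1 library of each group, and *CA1* is above 1 CPM only in wild type -Fe replicate 1. *EXPA7* and *CA1* were picked after their values were seen. In that library the leaf list had 4 genes above and 3 below the group mean, and the root marker list 5 above and 7 below.

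In *clf* roots all 42 tested members had a negative log2 fold change under iron deficiency, with a median of -1.69 against -0.01 over all tested genes, but none passed the test in edgeR. At an unadjusted p under 0.05, 27 members were lower, against 6.30% of all tested genes, and 0.491% of all tested genes were called lower and 1.27% higher after adjustment. The summed level was 424, 401 and 765 CPM in -Fe *clf* roots, against 1001, 2574 and 1238 CPM in +Fe *clf* roots. The sums did not overlap, and replicate 2 was the highest +Fe library. Without it, the median was -1.09, with 40 members negative and 2 positive, and without all 4 libraries that stand apart it was -0.95, with 39 negative and 2 positive. DESeq2 called 14 members lower, against 1.89% of all tested genes, and libraries did not overlap in 32 members, all lower, against 10.9% of all tested genes.

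The smallest adjusted p-values in *clf* belonged to the same PSII genes as in wild type. *PSBR* was at 19.7, 34.2 and 49.0 CPM in -Fe *clf* roots, against 75.7, 88.3 and 71.7 CPM in +Fe *clf* roots. The groups did not overlap, and the log2 fold change was -1.20 (SE 0.27, edgeR adjusted p = 0.0549). *PSBO1* was at 21.1, 25.2 and 37.5 CPM in -Fe *clf* roots, against 51.2, 96.3 and 62.9 CPM in +Fe *clf* roots. Its log2 fold change was -1.33 (SE 0.31, edgeR adjusted p = 0.0578). *PSAF* was at 6.57, 3.45 and 7.84 CPM in -Fe *clf* roots, against 16.6, 44.3 and 19.6 CPM in +Fe *clf* roots. *LHCB6* (AT1G15820), a minor antenna protein gene of PSII, was at 9.43, 11.8 and 15.6 CPM in -Fe *clf* roots, against 22.7, 53.8 and 29.1 CPM in +Fe *clf* roots. Neither of these genes overlapped between groups, with log2 fold changes of -2.17 (SE 0.57) and -1.52 (SE 0.40). Without wild type -Fe replicate 1, which enters this comparison only through the shared fit, 13 members were called lower in *clf*, against 0.946% of all tested genes. Without *clf* -Fe replicate 3 there were 2, against 0.482%, and without wild type -Fe replicate 2 there was 1, against 0.429%.

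**Figure D4:**
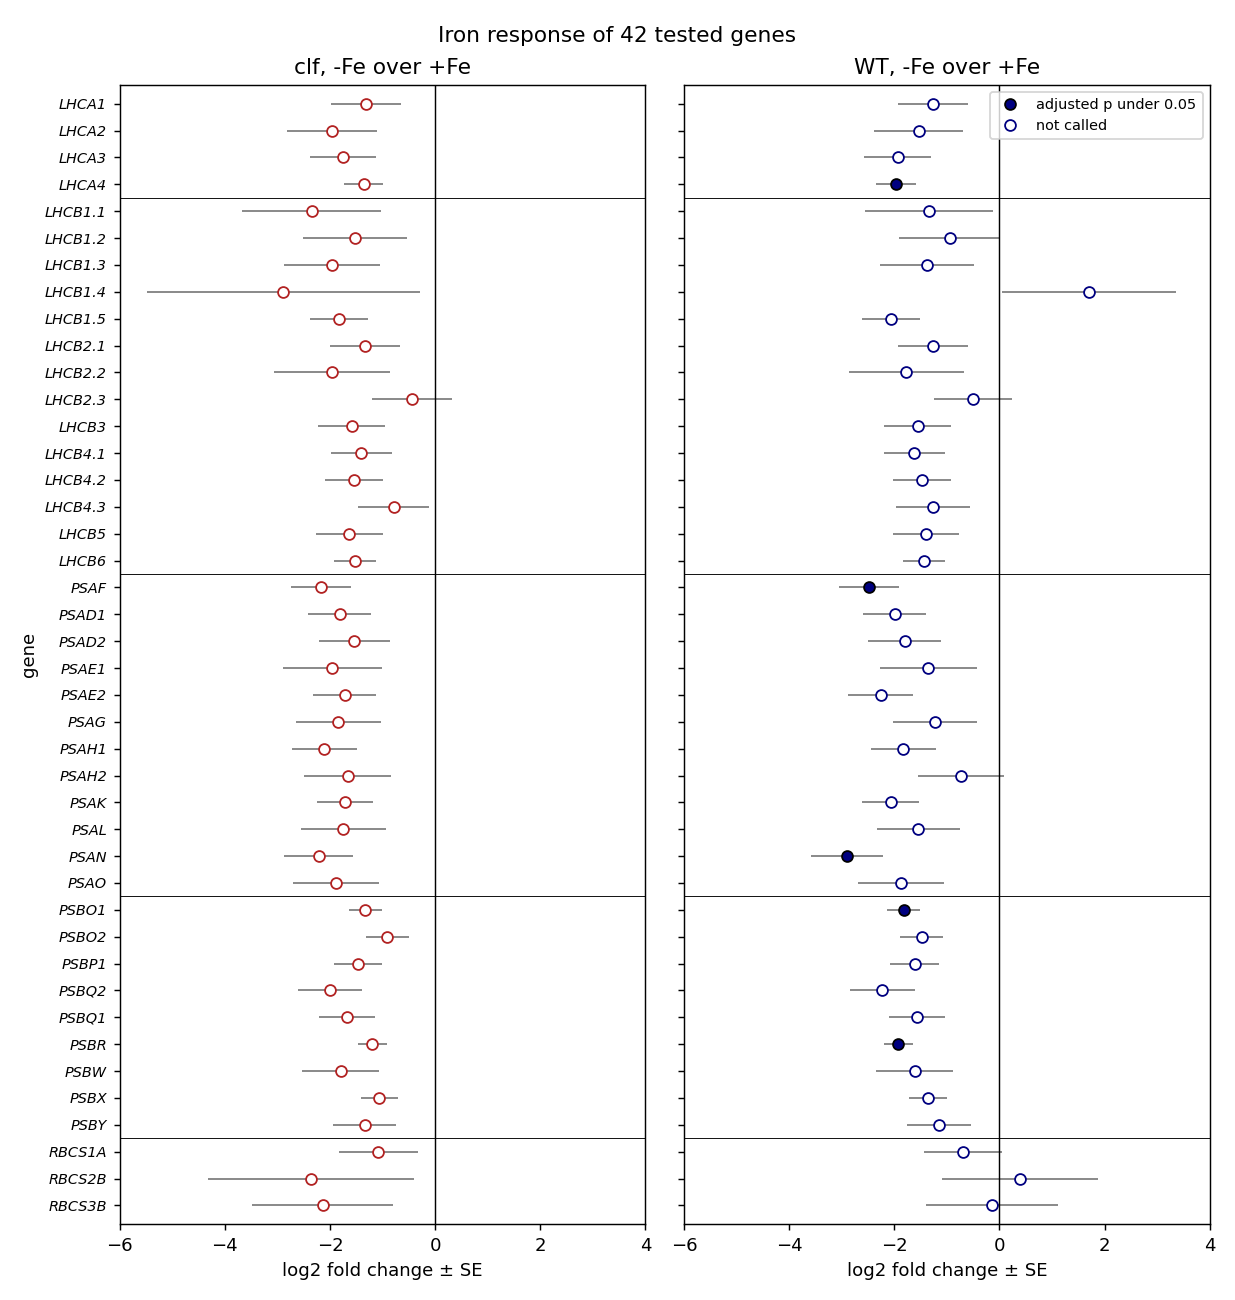
Log2 fold change (-Fe over +Fe) with its SE for the 42 tested genes in *clf* (left) and wild type (right), with filled points for an adjusted p under 0.05 in edgeR. All points lie below 0 in *clf*, and in wild type all do except *LHCB1.4* and *RBCS2B*.

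Among members that edgeR called in neither genotype, *PSBO2* (AT3G50820), the other manganese-stabilizing protein gene, was at 4.63, 8.61 and 12.2 CPM in -Fe *clf* roots, against 13.0, 20.0 and 14.8 CPM in +Fe *clf* roots. In wild type it was at 7.73, 3.02 and 4.70 CPM under -Fe, against 20.0, 11.7 and 11.3 CPM under +Fe. The libraries did not overlap in either genotype, and the log2 fold changes were -0.91 (SE 0.40) in *clf* and -1.48 (SE 0.41) in wild type, where DESeq2 called it (adjusted p = 0.00775). *PSBQ2* (AT4G05180), for another extrinsic subunit of the oxygen-evolving complex, was at 1.77 to 3.63 CPM in -Fe *clf* roots, against 6.68 to 16.0 CPM in +Fe *clf* roots. In wild type it was at 4.86, 0.586 and 1.93 CPM under -Fe, against 15.0, 10.2 and 9.54 CPM under +Fe. There was no overlap in either genotype, with log2 fold changes of -1.99 (SE 0.61) in *clf* and -2.22 (SE 0.61) in wild type. DESeq2 called *PSBQ2* in both (adjusted p = 0.0163 in *clf* and 0.00288 in wild type).

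*PSAH1* (AT3G16140) and *PSAH2* (AT1G52230) encode a PSI subunit at the docking site of the mobile antenna. *PSAH1* was at 0.806, 0.875 and 0.952 CPM in -Fe *clf* roots, against 2.09, 5.70 and 3.64 CPM in +Fe *clf* roots. In wild type it was at 0.135 to 1.58 CPM under -Fe, against 2.45 to 4.47 CPM under +Fe. Its groups did not overlap in either genotype, and it was called by DESeq2 in both (adjusted p = 0.0157 in *clf* and 0.0348 in wild type) but not by edgeR (adjusted p = 0.134 and 0.129). It lies opposite AT3G16130 over 788 bases. *PSAH2* was at 1.29, 1.34 and 2.22 CPM in -Fe *clf* roots, against 3.51, 8.53 and 3.36 CPM in +Fe *clf* roots. In wild type it was at 4.33, 0.361 and 0.368 CPM under -Fe, against 4.14, 2.45 and 1.87 CPM under +Fe, so only the *clf* groups were without overlap.

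*LHCA2* (AT3G61470), the *LHCA* gene at the lowest mean FPKM, was at 4.38 to 7.89 CPM in -Fe *clf* roots, against 10.8 to 41.9 CPM in +Fe *clf* roots. In wild type it was at 13.7, 1.04 and 2.53 CPM under -Fe, against 10.02 to 29.9 CPM under +Fe. The groups overlapped in wild type through -Fe replicate 1 and did not overlap in *clf*. *LHCB1.3* (AT1G29930) was at 43.1, 35.7 and 111 CPM in -Fe *clf* roots, against 109, 455 and 179 CPM in +Fe *clf* roots. In wild type it was at 142, 13.8 and 23.5 CPM under -Fe, against 290, 90.9 and 84.8 CPM under +Fe, and its groups overlapped in both genotypes. *LHCB4.3* (AT2G40100), of the minor PSII antenna, was at 0.161 to 1.27 CPM in -Fe and 0.567 to 1.73 CPM in +Fe *clf* roots, and at 0.226 to 0.460 CPM in -Fe and 0.522 to 1.05 CPM in +Fe wild type roots. *RBCS1B* was at no more than 1.05 CPM in any library and was not tested.

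Between genotypes no member passed the test. Under iron deficiency, the median log2 fold change (*clf* over wild type) was 0.18 against -0.00 over all tested genes, with 26 members positive and 16 negative, and 0.109% of all tested genes were called higher and 0.0248% lower. DESeq2 also called no member, against 0.798% of all tested genes that it called higher and 0.317% that it called lower. In edgeR, 1 member, *LHCB1.4*, had an unadjusted p under 0.05, where 4.58% of all tested genes were higher and 3.14% were lower. It was at 0.0403, 0.0461 and 0 CPM in -Fe *clf* roots, against 5.87, 0.0451 and 0 CPM in -Fe wild type roots, so the difference lay in 1 wild type library. Under iron sufficiency, the median was 0.13 against -0.01 over all tested genes, with 31 members positive and 11 negative. This direction rested on *clf* +Fe replicate 2, without which the median was -0.41, with 3 members positive and 39 negative, and without all 4 libraries that stand apart it was -0.14, with 15 positive and 26 negative. In the fit of all 12 libraries, 0.0645% of all tested genes were called higher and 0.00496% lower. No member was called by DESeq2, against 0.298% of all tested genes higher and 0.0744% lower, and none had an unadjusted p under 0.05 in edgeR, against 1.94% higher and 1.43% lower. *LHCB1.1* (AT1G29920) was at 2.51, 12.2 and 4.77 CPM in +Fe *clf* roots, against 13.6, 16.5 and 12.6 CPM in +Fe wild type roots. It was the 1 member whose +Fe libraries did not overlap between genotypes, against 4.34% of all tested genes with *clf* lower, and its log2 fold change was -1.13 (SE 1.21, edgeR adjusted p = 1).

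No member passed the test of whether the iron response differed between the genotypes. For the difference between them (*clf* minus wild type), 0 members were called by edgeR or DESeq2 and 0 had an unadjusted p under 0.05, while 0% of all tested genes were called by edgeR, 0.0149% were called lower by DESeq2 and 0.793% had an unadjusted p under 0.05 in each direction. The member median was -0.06, with the *PSBR* difference at 0.73 (SE 0.38) and that of *LHCB6* at -0.08 (SE 0.55). These genotype values depended on the libraries that stand apart. Without those 4, the median was 1.44 under iron deficiency and 21 members were called higher in *clf*, against 4.88% of all tested genes. The median difference between the iron responses was then 1.48, with 10 members called, against 1.73% of all tested genes. Removing these libraries makes the spread smaller by the way they were picked. Without wild type -Fe replicate 1 alone, the medians were 1.33 and 1.1, all 42 tested members were positive in both comparisons, and no member was called higher in either. Without *clf* +Fe replicate 2 alone, the median difference between the iron responses was 0.52, with 38 members positive and 4 negative.

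Some genes that work with the members were called as well. In wild type, where edgeR called 2.14% of all tested genes lower under -Fe and 2.28% higher, 5 of 15 tested genes of chlorophyll synthesis were called lower and none higher, with a median log2 fold change of -0.90. *HEMA1*, for the first committed enzyme of tetrapyrrole synthesis, had a log2 fold change of -3.51 (SE 0.46, edgeR adjusted p = 0.00268), and *CHLH*, a subunit of magnesium chelatase, one of -2.46 (SE 0.49, edgeR adjusted p = 0.0185). Of 14 Calvin cycle genes, 3 were called lower, namely *RPE*, *CP12-1* and *RCA*, which encodes Rubisco activase. Of 16 tested electron transport genes outside the members, 4 were called lower, among them *FNR1* for a ferredoxin-NADP reductase at -1.49 (SE 0.33) and *FD2* for leaf ferredoxin at -1.27 (SE 0.27), and *PGRL1A* was called higher at 0.67 (SE 0.15). Of 12 tested regulators, 3 were called lower, namely the plastid sigma factor *SIG1* at -2.45 (SE 0.28), *PIF5* at -2.66 (SE 0.65) and *GLK2*, an activator of chloroplast genes, at -1.05 (SE 0.26). In *clf*, where 0.491% of all tested genes were called lower and 1.27% higher, *HEMA1* at -2.39 (SE 0.44) and *SIG1* at -1.57 (SE 0.27) were called lower and *PGRL1A* higher at 0.78 (SE 0.15). Of 14 clock genes, none was called in either iron comparison. Each group held 1 library with *CCA1* and *TOC1* levels apart from the rest. The spread of such genes within groups is therefore wide, and the test could miss a change in them. The 13 chloroplast-encoded gene IDs listed summed to 6.83 ± 3.43 CPM in -Fe and 9.98 ± 6.45 CPM in +Fe *clf* roots, and to 7.43 ± 4.43 CPM in -Fe and 13.8 ± 2.17 CPM in +Fe wild type roots (SD, n = 3 each), and none of the 10 tested was called in either comparison.

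The regions before the annotated starts of the members were read for motifs because the genes moved together. In the 250 bases before the start, on both strands, CCAATC, a motif linked to GLK factors, was in 11 of 43 members (25.6%), against 10.2% of 27443 protein-coding genes. It was in 3 of 4 *LHCA* and 7 of 14 *LHCB* genes, in 1 of 9 *PSB* genes and in none of the 12 *PSA* and 4 *RBCS* genes. The G-box CACGTG was in 9 members (20.9%), against 6.49% of all, and the I-box GATAAG in 10 (23.3%), against 12.3%. The CCA1 site AAAAATCT was in 5 members (11.6%), against 6.69%, and the evening element AAAATATCT was in none, against 2.36%. The TATA box TATAAA was in 19 members (44.2%), against 47.3%. A match is a description of these letters only. No 2 of these motifs contain each other, and some windows reach into neighboring genes.

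Upstream sequences of 3 called members are shown, each from the base 250 before the annotated start to the last base before it, on the gene's strand, with capitals at the motifs above. For *LHCA4* (minus strand, chr3:17495034-17495283) the capitals are, in order, the CCA1 site and CCAATC, both on the opposite strand, then the G-box and CCAATC. For *PSAF* (minus strand, chr1:11216142-11216391) they are the I-box, and for *PSAN* (minus strand, chr5:25629709-25629958) the CCA1 site on the opposite strand. All are from RefSeq, TAIR10.1.
LHCA4: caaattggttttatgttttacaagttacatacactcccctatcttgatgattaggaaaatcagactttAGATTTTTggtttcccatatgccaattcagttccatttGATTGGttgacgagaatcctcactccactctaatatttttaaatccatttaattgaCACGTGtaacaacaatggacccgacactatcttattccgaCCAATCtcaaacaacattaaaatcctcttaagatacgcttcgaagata
PSAF: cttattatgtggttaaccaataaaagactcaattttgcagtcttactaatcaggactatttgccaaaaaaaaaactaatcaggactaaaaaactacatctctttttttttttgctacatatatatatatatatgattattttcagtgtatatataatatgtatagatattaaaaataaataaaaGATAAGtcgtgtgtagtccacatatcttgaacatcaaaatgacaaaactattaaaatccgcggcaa
PSAN: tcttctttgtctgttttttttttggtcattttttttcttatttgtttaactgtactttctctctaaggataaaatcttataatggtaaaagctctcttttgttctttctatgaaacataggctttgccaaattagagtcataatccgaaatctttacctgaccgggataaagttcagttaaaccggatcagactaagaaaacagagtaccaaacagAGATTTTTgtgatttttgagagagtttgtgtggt

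The other 2 called members, *PSBR* and *PSBO1*, had the smallest SE of the members in wild type and no G-box, I-box, CCA1 site or CCAATC match in these windows. *PSBR* lies on chr1:29735952-29737009 and *PSBO1* on chr5:26568572-26570461, both on the plus strand, and the end of *PSBR* overlaps its neighbor AT1G79050 over 51 bases.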

How the data were processed

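Root libraries of 4 groups (*clf* and wild type, -Fe and +Fe, 3 each) were analysed. The authors deposited a table of raw counts by gene, from HTSeq (union mode) on paired-end reads mapped to TAIR10 (the submitters' processing notes name TopHat2, with no version), and a table of FPKM, which the authors computed from counts, gene length and library size. TMM factors and edgeR's default filter on low counts preceded a robust quasi-likelihood test of the 4 groups in edgeR 4.0.16, under R 4.3.3 (8 residual degrees of freedom, 20168 genes). P-values were adjusted by Benjamini-Hochberg over these genes, with a threshold of 0.05, and measure the spread among libraries that the methods call biological replicates. FPKM served for levels compared between genes.

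Alternatives were DESeq2 1.42.0, RLE factors, no filter, at least 10 reads in every library, limma 3.58.1 on log2(FPKM + 1) or log2(FPKM + 0.1), the 6 libraries compared, a replicate block, leaving out each library in turn, and the least correlated library of each group left out or as a term. The 6 libraries with a block were added after the data were seen. Deviations of libraries with the same number were correlated in the wild type iron comparison (0.616, 0.439 and 0.462) and in the genotype comparison under -Fe (0.458, 0.545 and 0.168). They were not for iron in *clf* (-0.401, -0.345 and 0.439) or genotype under +Fe (-0.383, -0.397 and 0.343). Every same-number value was over 0.1 in the first 2 comparisons only. The main test used no pairing, and the replicate number entered only as a block in alternative fits. The highest correlation with a library of another number was -0.522, 0.425 and 0.413 in the wild type iron comparison, close to the same-number values for replicates 2 and 3, and -0.333, 0.309 and 0.0525 for genotype under -Fe. In both of these comparisons replicate 1 was the least correlated library of each group. A pairing by number cannot be told apart from this.

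The genes, lists and tests were chosen with earlier results of these data known. Values by library are given for the 4 members with the smallest p in each comparison and the highest and lowest member of each complex, and for members on which a count turned, which were chosen after their values were seen. Tests were tried on simulated counts. Sequences and positions are from RefSeq TAIR10.1 by gene ID, and identities are from global alignments (Biopython).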

Additional observations from a re-analysis of the deposited data

How the results depend on the processing

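The count of members called lower under -Fe in wild type (5) was 18 with DESeq2, 3 with no filter on low counts, 13 with limma on log2(FPKM + 1) and 13 on log2(FPKM + 0.1), 2 with only the 6 libraries compared, 23 with those 6 and a replicate block, 38 without the 4 libraries that stand apart and 23 with those as a term. In *clf* the count (0) was 14 with DESeq2, 2 and 1 with limma on log2(FPKM + 1) and log2(FPKM + 0.1), 1 with only the 6 libraries compared, 15 without the 4 libraries and 8 with those as a term. Leaving out 1 library gave 2 to 28 calls in wild type and 0 to 13 in *clf*. The share of all tested genes called lower also changed with the setting. It was 2.14% in wild type and 0.491% in *clf* with edgeR, and 4.32% and 1.89% with DESeq2. Counts of members given without that share are not by themselves a result about the members. Without the 4 libraries, 21 members were called higher in *clf* under -Fe, 1 lower under +Fe (*LHCB1.1*) and 10 higher for the difference between the iron responses.

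The median log2 fold change in wild type was -2.40 without the 4 libraries and -2.82 to -1.16 on leaving out 1 library. The genotype median under -Fe was 1.44 without the 4 and -0.26 to 1.33 on leaving out 1, and the median difference of iron responses was 1.48 and -0.42 to 1.1. Between genotypes under +Fe the median was -0.41 (without *clf* +Fe replicate 2) to 0.42 on leaving out 1 library, and 31 positive and 11 negative members became 3 and 39 without that replicate. Under -Fe, 26 positive and 16 negative became 42 and 0 without wild type -Fe replicate 1. Among the members with the smallest p, signs turned for *RBCS1A* (-0.13 to 1.13) and *LHCB1.3* (-0.10 to 1.49) between genotypes under +Fe, for *LHCB1.4* (-6.42 to 0.29) and *RBCS2B* (-4.61 to 1.19, and 1.77 without the 4) under -Fe, and for *LHCB1.4* in the difference between the iron responses (-5.70 to 1.53), all on leaving out 1 library. The cause of these changes was not tested. The replicate block in the model of 12 libraries gave 4 calls in wild type, 0 in *clf* and 0 between genotypes, and changed no other count by over 1.5 times. Members with few reads (*RBCS1B*, *RBCS2B*, *LHCB1.4* and *LHCB4.3*) are limited by depth.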
